A study of Mus musculus with 2 samples.

Results

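The genes described here encode the protein factors that start and extend the polypeptide chain on the cytosolic ribosome. They were taken as every row of the 2 deposited UMI tables whose Ensembl identifier belongs to a protein-coding mouse gene with a symbol beginning in Eif or Eef, 65 of 27443 gene identifiers in all. The table of cells from the 4 heart chambers held 63 of them among 24522 identifiers, and the table of live and fixed cells held all 65 among 22679.

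The cells were heart muscle cells of adult wild type C57BL/6 mice, freed by collagenase and protease perfusion, sorted singly by large particle flow cytometry and sequenced by SCRB-seq, a plate method that tags the 3′ end of each captured mRNA with a cell barcode and a unique molecular identifier (UMI). In the multichamber study the mice were about 3 months old and cells were labelled as LA and RA (left and right atrium) or as LV and RV (left and right ventricle); in the other study ventricular cells were sorted either after fixation in ethanol (fixed) or without it (live). The labels name no transgene and no drug. Each label is 1 pool of cells for which no animal is named, so no test between groups was possible and every interval below is an exact 95% interval for counting error alone. A labelled cell was kept from 1000 gene UMIs and 500 genes upward, which left 56 of 71 LA, 44 of 69 RA, 91 of 96 LV, 90 of 96 RV, 35 of 36 fixed and 31 of 36 live cells. Those pools held 933747, 470095, 2566040, 2988611, 2424636 and 1483859 UMIs of nuclear-encoded genes in the same order, and levels are given per 1000000 of these (CPM). Because a UMI counts an mRNA end, levels are not divided by gene length, but they still depend on how well each 3′ end was captured and annotated, and levels are not set against each other between the 2 studies.

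The atrial labels did not go with atrial marker genes. Nppa, which encodes atrial natriuretic peptide, had 0 UMIs in the LA and RA pools, and the 4 atrial markers Nppa, Sln, Myl4 and Myl7 summed to 96.4 CPM for LA, 0 for RA, 8.18 for LV, and 5.69 CPM for RV. Myl2, the ventricular regulatory light chain, stood at 9322 CPM for LA, 11721 for RA, 10497 for LV, and 10335 CPM for RV. The protocol in the labels describes excision of the ventricle only. The groups are therefore called atrial-labelled and ventricular-labelled. Haemoglobin and other red cell markers made up 2.68% of nuclear-encoded UMIs for LA, 4.99% for RA, 1.21% for LV and 1.30% for RV.

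Initiation begins when the small ribosomal subunit, bound by eIF1, eIF1A, eIF3, eIF5 and the eIF2-GTP-initiator tRNA complex, is recruited to the capped end of an mRNA by eIF4E, eIF4G and the helicase eIF4A, and scans to a start codon. Release of eIF2-GDP and its recharging by eIF2B close the cycle, and phosphorylation of eIF2 by any of its kinases slows it. In elongation, eEF1A delivers aminoacyl-tRNA, the eEF1B proteins reload eEF1A with GTP, and eEF2 moves the ribosome along by a codon. The eEF1A protein has a pair of genes: Eef1a1 is used by most cells, and Eef1a2 replaces it in mature neurons, skeletal muscle and heart muscle.

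The stretches around the RefSeq starts of the Eef1a pair and of Eef2 are shown because these genes carry the main results. Each runs from 100 bases before to 30 bases after the gene start in RefSeq, 5′ to 3′ on the gene's own strand, in the mouse build GRCm38.p6: chr2:181156986-181157115 on the minus strand for Eef1a2, chr9:78481695-78481824 on the minus strand for Eef1a1, and chr10:81176531-81176660 on the plus strand for Eef2. Capitals mark matches to the TATA box (letters TATAAA), its variant (letters TATATAA), the GC box (letters GGGCGG, which read CCGCCC on the other strand), the E-box (letters CACGTG) and the cyclic AMP response element (letters TGACGTCA). Both strands were searched, and no matches overlapped in these stretches. The Eef1a1 start at position 78481724 is that of the principal transcript in GENCODE, and lies 7427 bases inside the GENCODE gene, which begins at 78489151 with a longer transcript. The Eef2 start is the same in both annotations, and that of Eef1a2 differs by 1 base.
Eef1a2: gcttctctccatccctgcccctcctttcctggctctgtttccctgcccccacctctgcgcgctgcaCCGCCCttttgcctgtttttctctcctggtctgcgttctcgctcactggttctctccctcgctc
Eef1a1: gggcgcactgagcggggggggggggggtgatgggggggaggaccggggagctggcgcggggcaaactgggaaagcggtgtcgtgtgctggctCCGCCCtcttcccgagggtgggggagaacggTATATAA
Eef2: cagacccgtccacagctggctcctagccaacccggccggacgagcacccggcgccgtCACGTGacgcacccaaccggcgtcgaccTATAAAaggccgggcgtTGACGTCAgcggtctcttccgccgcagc
The Eef1a1 stretch held a TATA box variant beginning 24 bases into the annotated transcript and the Eef2 stretch a TATA box beginning 15 bases before the start, while the Eef1a2 stretch held neither. Over windows of 300 bases, a GC box was found in 39 of 52 factor genes with a window and in 35.7% of all 32851 windows; TATAAA was found in 5 of the 52 and in 13.6% of all windows, TATATAA in 3 of the 52 and in 3.24%, CACGTG in 11 of the 52 and in 7.15%, and TGACGTCA in 1 of the 52, Eef2, and in 1.79%. The factor genes entered with 1 window each and are all protein-coding. All windows were counted without a limit to 1 per gene, to protein-coding genes or to genes measured here. The shares thus come from unlike sets. These matches describe letters and not bound sites.

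All factor genes together made up 0.665% of nuclear-encoded UMIs for LA, 0.688% for RA, 0.646% for LV and 0.617% for RV, and 0.264% in fixed and 0.305% in live cells. In cells with at least 5000 gene UMIs, the share per cell had a median of 0.627% for LA, 0.741% for RA, 0.636% for LV, and 0.615% for RV, with quartiles of 0.558% and 0.715% for LV and of 0.550% and 0.709% for RV. In the live/fixed study the median was 0.273% in fixed and 0.354% in live cells. Rows of unprocessed pseudogenes held 21.8% of all nuclear-encoded UMIs in fixed and 25.8% in live cells, against 0.343% to 0.549% in the chambers. These rows are part of the total by which the shares are divided. Their part in the lower shares of the live/fixed study was not tested.

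**Figure D1:**
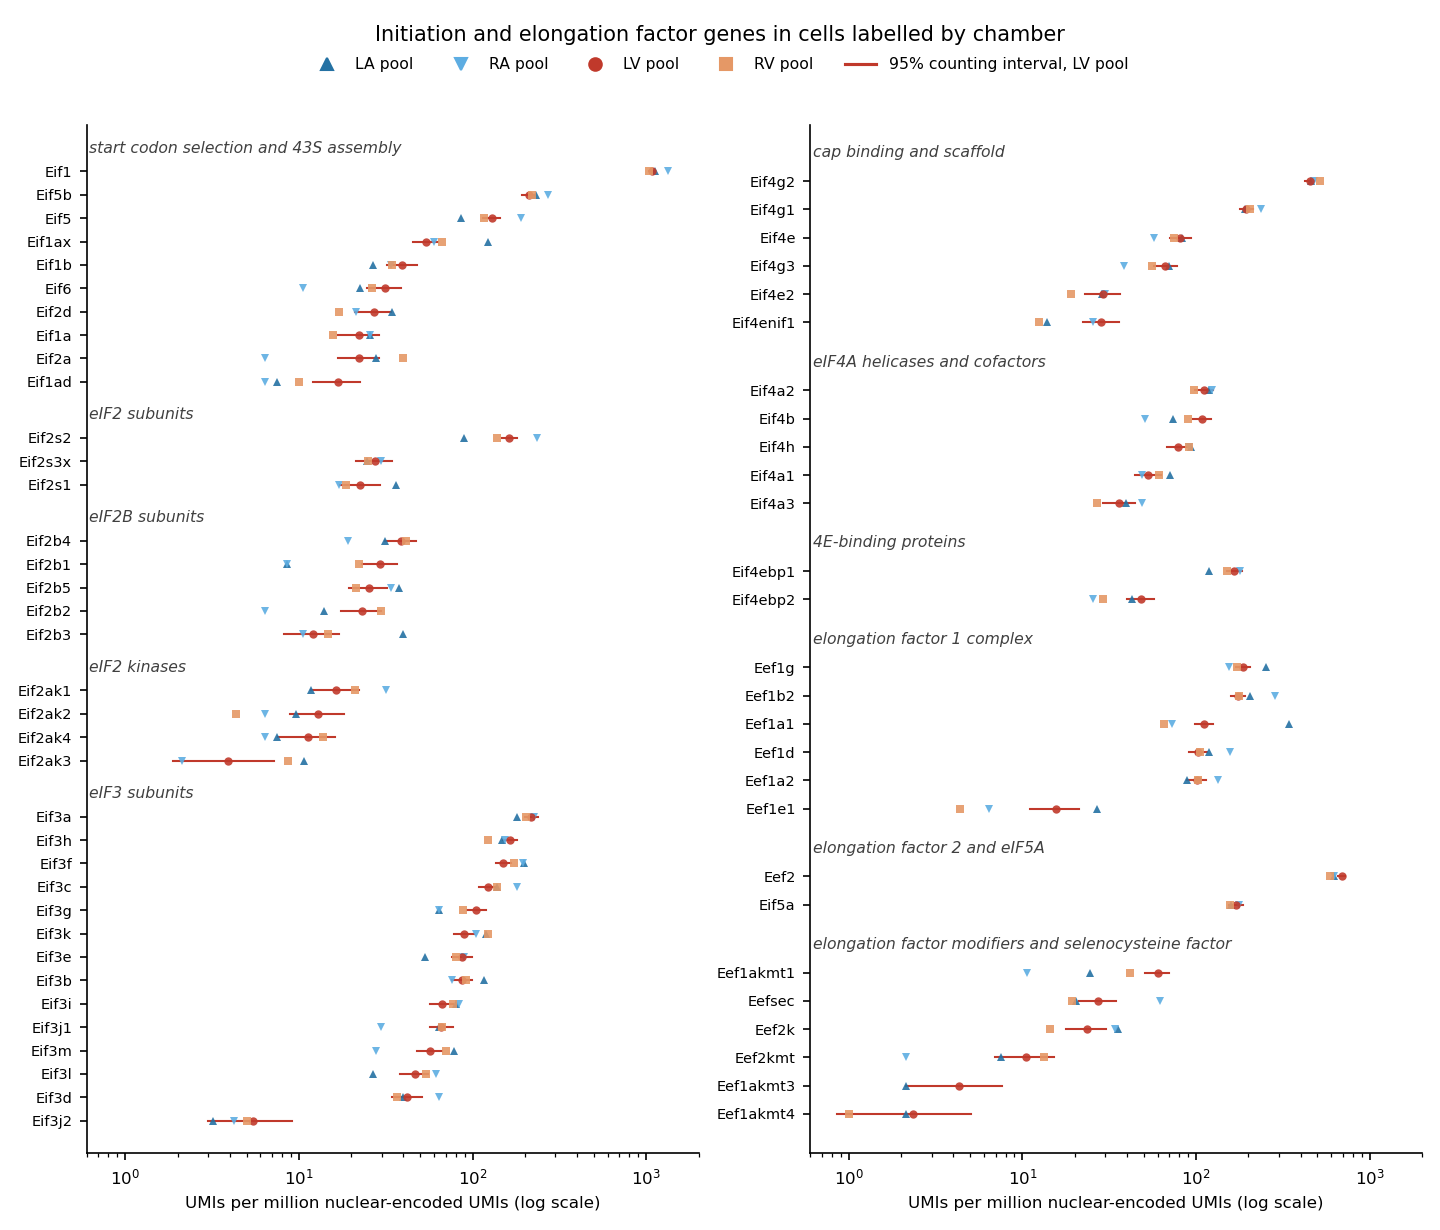
Levels of the 63 factor genes with a row in the multichamber table, in CPM on a log axis, grouped by role; triangles stand for the LA and RA pools, circles for LV and squares for RV, red lines are the 95% counting intervals of LV, and pools at 0 are not drawn. Eif1 and Eef2 lie farthest to the right in every chamber, and most chambers lie close together for the abundant genes.

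Eif1, which keeps the scanning ribosome from settling on a wrong start codon, was the most abundant factor mRNA in LV, at 1123 CPM for LA, 1340.2 for RA, 1079 (1039 to 1120.1) for LV, and 1037 (1001 to 1074) CPM for RV. It was followed in LV by Eef2, the translocation factor, at 619 CPM for LA, 621 for RA, 689 (658 to 722) for LV, and 592 (565 to 620.2) CPM for RV. The next was Eif4g2, a scaffold related to eIF4G that lacks the eIF4E binding site, at 459, 479, 451 and 518 CPM in LA, RA, LV and RV. The other genes among the 12 highest in LV lay between 163 and 218 CPM. They were Eif3a, the largest eIF3 subunit (218 CPM), Eif5b, the GTPase that joins the ribosomal subunits (210.4 CPM), Eif4g1, the main scaffold of cap binding (194 CPM), Eef1g and Eef1b2 of the eEF1B complex (186 and 175 CPM), Eif5a (169.9 CPM), Eif4ebp1, a repressor of eIF4E (166 CPM), Eif3h (164 CPM) and Eif2s2, the β subunit of eIF2 (163 CPM).

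Subunits of a single complex differed widely in level. In LV the γ subunit gene of eIF2, Eif2s3x, had 27.3 CPM and the α subunit gene Eif2s1 22.6 CPM, against 163 CPM for Eif2s2. The 13 eIF3 subunit genes other than Eif3j2 ran from 42.1 CPM (Eif3d) to 218 CPM (Eif3a) in LV, the 5 genes of eIF2B from 12.1 CPM (Eif2b3) to 38.6 CPM (Eif2b4), and the 4 eIF2 kinases from 3.90 CPM (Eif2ak3, the kinase of endoplasmic reticulum stress) to 16.4 CPM (Eif2ak1, the haem-regulated kinase). Eif2ak2, the kinase activated by double-stranded RNA, had 12.9 CPM and Eif2ak4, the kinase of amino acid shortage, 11.3 CPM in LV.

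Among close paralogues, Eif4a2 had more UMIs than Eif4a1, the other cytosolic eIF4A helicase, in all 6 pools: 118 against 70.7 CPM for LA, 123 against 48.9 for RA, 111 against 53.0 for LV, 97.4 against 61.2 for RV, 89.9 against 30.9 in fixed and 86.3 against 33.0 CPM in live cells. Eif1 exceeded its paralogue Eif1b in each pool, with Eif1b at 26.8 CPM for LA, 34.0 for RA, 39.4 for LV, 34.5 for RV, 21.4 in fixed and 29.0 CPM in live cells. Of the eIF1A genes, Eif1ax had 123, 59.6, 53.8, 66.6, 31.3 and 57.3 CPM for LA, RA, LV, RV, fixed and live cells, and Eif1a 25.7, 25.5, 22.2, 15.7, 9.07 and 11.5 CPM. Eif4e, the cap-binding protein, had 82.5, 57.4, 81.1, 74.6, 19.8 and 59.3 CPM in that order of pools, and its homologue Eif4e2 28.9, 29.8, 29.2, 19.1, 14.0 and 9.43 CPM. Of the eIF4E repressors, Eif4ebp1 had 119, 179, 166, 150.2, 54.0 and 40.4 CPM, and Eif4ebp2 42.8, 25.5, 47.9, 29.1, 9.07 and 14.2 CPM.

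Eif5a, whose product carries the modified residue hypusine, had 56.1 CPM in fixed against 55.9 CPM in live cells, where its paralogue Eif5a2 had 1 UMI each. Eif2s3y, the Y-linked copy of the eIF2 γ gene, likewise had 1 UMI in fixed and 1 in live cells, against 56 and 34 UMIs of Eif2s3x. Eif3j1 and Eif3j2 are near-identical copies: they had 170 and 14 UMIs in LV but 109 and 73 UMIs in live cells, so the split between the copies differed between the 2 studies. The cause was not tested, and the annotation each table was counted with is not given in the sources used here. Neither copy is read alone, and their sum is given where either is counted below. Another annotated gene overlaps 37 of the 65 genes, 23 on the same and 23 on the opposite strand; the strand setting of the counting is not given in the sources used here, so reads of such pairs cannot be told apart.

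The Eef1a pair was compared next, as the share of Eef1a2 among Eef1a1 and Eef1a2 UMIs. Eef1a2 lies at chr2:181147653-181157014 and Eef1a1 at chr9:78478449-78489151 (GRCm38, both on the minus strand). Eef1a1 has many near-identical retrocopies in the genome, so its UMIs may be undercounted, and Gm26377 overlaps it on the same strand. Eef1a2 held 20.6% (16.8 to 24.9) of the pair for LA, 64.9% (54.6 to 74.4) for RA, 47.5% (43.3 to 51.8) for LV, 60.8% (56.4 to 65.1) for RV, 75.5% (70.6 to 79.9) in fixed and 71.3% (65.5 to 76.5) in live cells. Among the chambers LA was lowest, with an interval below those of the other 3, and the intervals of fixed and live cells overlapped. Without the top cell of each gene the share was 72.8% in fixed and 77.8% in live cells. From read counts in place of UMIs it was 49.0% in fixed and 37.9% in live cells. For the chambers, read counts gave 6.18% for LA, 63.3% for RA, 37.8% for LV and 48.9% for RV. Which copy held the larger part thus depended on the counting in fixed, live and RV cells. By library, Eef1a2 held 34.5%, 21.6%, 3.42% and 88.9% for LA, 69.2%, 16.7%, 87.9% and 10.0% for RA, 21.9%, 58.7%, 87.3% and 69.5% for LV and 59.6%, 71.8%, 42.2% and 86.2% for RV, for libraries A, B, C and D in turn. The libraries of 1 label thus spread as widely as the labels.

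**Figure D2:**
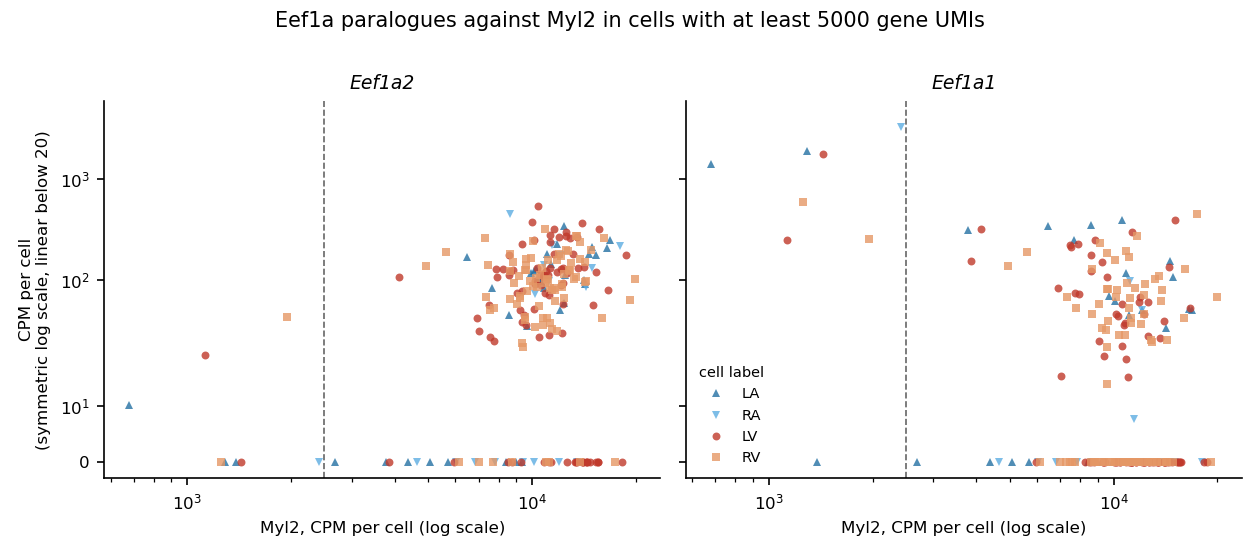
Levels of Eef1a2 (left) and Eef1a1 (right) against Myl2 in each multichamber cell with at least 5000 gene UMIs, in CPM, with Myl2 on a log axis and the pair on a symmetric log axis that is linear below 20; symbols give the cell label and the dashed line Myl2 at 2500 CPM. The 7 cells with an Eef1a1 UMI left of the line include the highest Eef1a1 values of the plot, while Eef1a2 there is at or near 0.

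Single cells held a large part of the Eef1a1 UMIs. Of 836 Eef1a1 UMIs in all kept multichamber cells, 149 were in 1 LV cell of library A, 141 in 1 LA cell of library B and 113 in 1 LA cell of library C. Libraries also differed where no such cell was present: Eef1a1 stood at 175 CPM in LA of library A, where the top cell held 16 of 57 UMIs, and at 17.2 CPM in LA of library D, from 1 UMI. The highest Eef1a2 count in any cell was 29 UMIs, of 709. The 3 cells high in Eef1a1 were low in Myl2, at 1433, 679.6 and 1288 CPM, against a median of 11046 CPM in the cells with at least 5000 gene UMIs that were above the limit set next.

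Among the multichamber cells with at least 5000 gene UMIs, 8 had under 2500 CPM of Myl2, a limit chosen after the values were seen: 3 labelled LA, 1 RA, 2 LV and 2 RV. The nearest cell inside the limit had 2418 CPM and the nearest outside 2684 CPM, and 7 cells lay between 2500 and 5000 CPM. These 8 cells held 5.88% of nuclear-encoded UMIs, 58.4% of the Eef1a1 UMIs and 0.423% of the Eef1a2 UMIs. Eef1a1 stood at 1194 CPM in the 8 cells and at 50.1 CPM in the other 222 cells, a ratio of 23.8 (20.7 to 27.5). Eef1a2 stood at 7.34 CPM in the 8 cells, from 3 UMIs, and at 109 CPM in the others, a ratio of 0.0676 (0.0139 to 0.198). Per cell, Eef1a1 ran over 0, 248, 254, 592, 1430.1, 1779, 1915 and 3348 CPM, so 7 of the 8 cells had Eef1a1, 3 of them had a single UMI of Eef1a2, and 5 had none.

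Marker lists of other cell types were read in these 8 cells, and the lists named here were chosen after their values were seen. The LA cells of libraries B and C had 0.946% and 0.951% of their UMIs from mesothelial markers and 0.325% and 0.283% from fibroblast markers. The whole LA pool had 0.167% and 0.0578%. All non-myocyte lists together made up 1.40% and 1.44% of these cells, against a median of 1.84% over kept LA cells. In 1 cell each of LV library A, LV library B and RV library C, endothelial markers made up 0.645%, 0.529% and 0.673%. The LV and RV pools had 0.0523% and 0.0499%. Red cell markers made up 0.553%, 1.29% and 0.886% of the same cells, against 1.21% of the LV and 1.30% of the RV pool. Red cell markers made up 51.4% of the LA cell of library D, 19.5% of the RA cell of library D and 5.26% of the RV cell of library B. The nearest cell outside the limit, an LA cell of library B, had 48.9%. Neither that cell nor the LA cell of library D had an Eef1a1 UMI. The part of these other cell types in the Eef1a1 values was not tested.

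**Figure D3:**
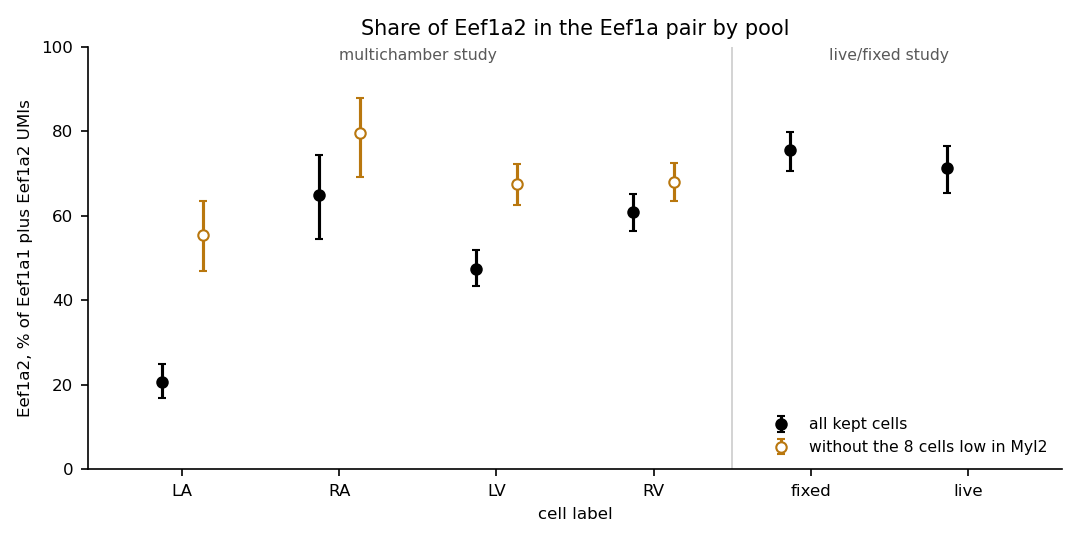
Percent of Eef1a1 and Eef1a2 UMIs that belonged to Eef1a2 in each pool, with 95% counting intervals; filled points are all kept cells and open points leave out the 8 multichamber cells low in Myl2. Without those cells the LV and RV points nearly coincide, at 67.5% and 68.1%, and LA stands at 55.4%.

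Without the 8 cells Eef1a2 held 55.4% (47.0 to 63.6) of the pair for LA, 79.7% (69.2 to 88.0) for RA, 67.5% (62.6 to 72.2) for LV and 68.1% (63.5 to 72.4) for RV. Over both atrial labels the share was 63.9% (57.3 to 70.1), and over both ventricular labels 67.8% (64.5 to 71.0). With all kept cells the same shares were 29.2% (25.2 to 33.4) in atrial-labelled and 53.9% (50.8 to 56.9) in ventricular-labelled cells. Eef1a1 itself, again without the 8 cells, stood at 66.4 CPM in atrial-labelled and 50.1 CPM in ventricular-labelled cells, and Eef1a2 at 117 and 106 CPM in the same order.

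The other factor genes were set beside the pair in the 8 cells. Of 61 with at least 30 UMIs over both sets of cells, 17 were at least 1.5-fold higher and 14 at least 1.5-fold lower; of 11633 genes measured in the same way, 46.8% were higher and 29.4% lower. The median log2 ratio was -0.03 for the factor genes and 0.44 for all genes. Eif4g3, an eIF4G paralogue, had 183 CPM in the 8 cells and 52.4 CPM in the others, a ratio of 3.50 (2.69 to 4.51). Eif2ak2 had 29.3 and 7.13 CPM, a ratio of 4.12 (1.98 to 7.89). Its 12 UMIs in the 8 cells lay in 3 of them, with 50.0% in a single cell. Eef2k, the kinase that inactivates eEF2, had 56.3 and 19.8 CPM, a ratio of 2.83 (1.73 to 4.44). A single cell held 69.6% of the Eef2k UMIs of the 8 cells. On the low side, Eif4e had 22.0 CPM in the 8 cells and 80.9 CPM in the others, a ratio of 0.272 (0.124 to 0.520), Eif2s2 48.9 and 154 CPM, a ratio of 0.318 (0.193 to 0.493), Eif4ebp1 61.1 and 160.5 CPM, a ratio of 0.381 (0.245 to 0.566), and Eif4g2 249 and 498 CPM, a ratio of 0.500 (0.407 to 0.610). Eef2 was at 658 CPM in the 8 cells and 634 CPM in the others, a ratio of 1.04 (0.913 to 1.17).

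Fixed cells were compared with live cells, both from the same library, which asks how levels after ethanol relate to those without it. Of 53 factor genes with at least 30 UMIs over both pools, 1 was at least 1.5-fold higher and 20 at least 1.5-fold lower in fixed cells, against 10.8% and 40.0% of all 7860 genes measured. The median log2 ratio was -0.35 for the factor genes and -0.38 for all genes, a difference of 0.03. Relative to the median gene, 13 factor genes were higher and 12 lower, against 22.2% and 24.6% of all genes. The direction of a ratio near 1 depended on the scaling: 17 of the 53 ratios lay above 1 as reported and 33 with TMM or median-of-ratios factors, which moved the median of the factor genes to 0.15 and 0.21 on the log2 scale and turned the sign of 16 genes each. Fixed cells had 14.9% of gene UMIs from mitochondrially encoded genes and live cells 28.3%. The genes below the 30 UMI limit were all 4 eIF2 kinases, Eif2b1, Eef1e1, Eif1ad, Eif2s3y, Eif5a2, Eef1akmt3, Eef1akmt4 and Eef2kmt.

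**Figure D4:**
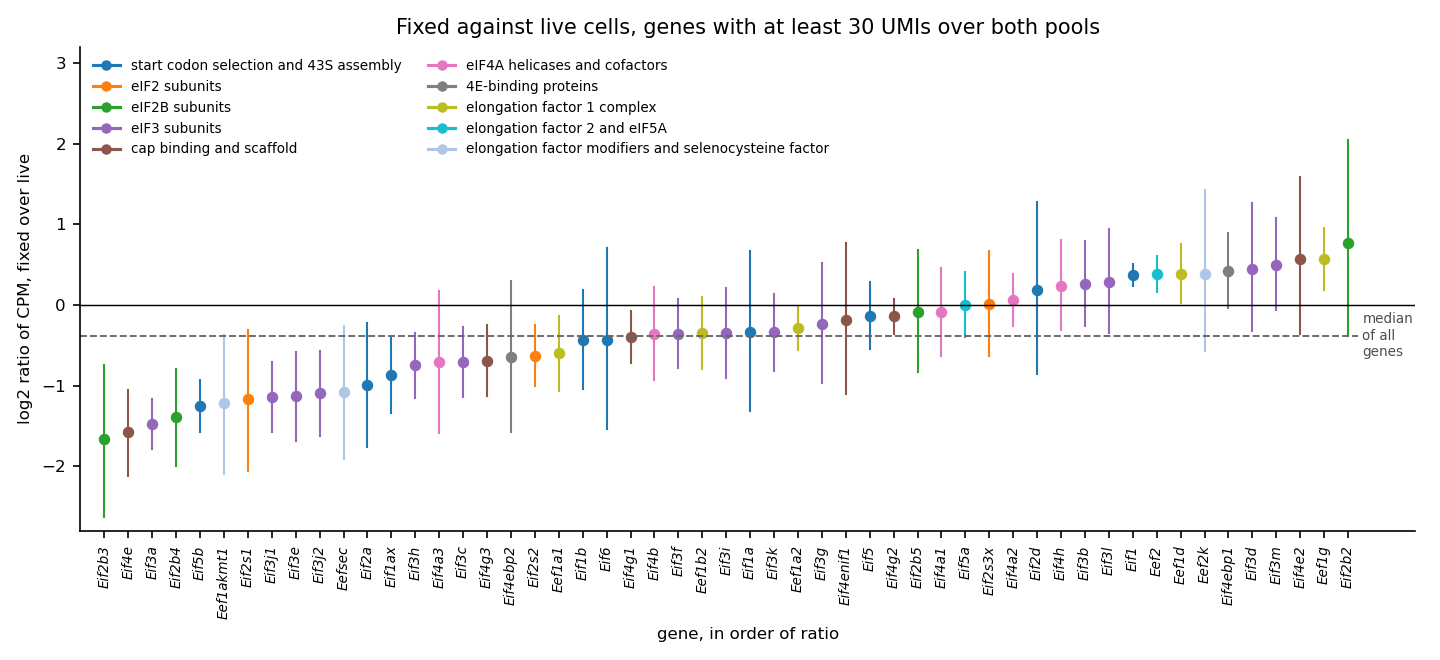
Log2 ratios of CPM, fixed over live, for the 53 factor genes with at least 30 UMIs over both pools, in order; colours give the role, vertical lines 95% counting intervals, the solid line no difference and the dashed line the median of all genes at -0.38. Eif2b3, Eif4e, Eif3a, Eif2b4 and Eif5b lie lowest and Eef1g, Eif4e2 and Eif2b2 highest.

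Among the elongation factors Eef2, Eef1g and Eef1d had ratios above 1, and Eef1b2 and the Eef1a pair ratios below 1, although with TMM factors the log2 ratios of Eef1b2 and Eef1a2 were 0.15 and 0.21. Eef2 had 218 (199.6 to 237) CPM in fixed against 166 (146 to 189) CPM in live cells, a ratio of 1.31 (1.12 to 1.53). Eef1g, the structural subunit of eEF1B, had 80.8 CPM in fixed against 54.6 CPM in live cells, a ratio of 1.48 (1.14 to 1.94), and Eef1d, one of its exchange subunits, 82.9 and 63.3 CPM, a ratio of 1.31 (1.02 to 1.69). The other exchange subunit gene, Eef1b2, had 41.2 CPM in fixed against 52.6 CPM in live cells, a ratio of 0.785 (0.578 to 1.07). Eef1a2 had 108 CPM in fixed against 132 CPM in live cells, a ratio of 0.818 (0.677 to 0.990), and Eef1a1 35.1 and 53.2 CPM, a ratio of 0.658 (0.479 to 0.906), which without the top cell of the gene was -0.19 on the log2 scale. The eEF1 complex summed to 353 CPM in fixed against 359 CPM in live cells, a ratio of 0.984 (0.882 to 1.10). Eefsec, which brings selenocysteine to the ribosome, had 9.90 and 20.9 CPM in fixed and live cells, and Eef1akmt1, a lysine methyltransferase of eEF1A, 8.66 and 20.2 CPM.

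Among initiation factors, Eif1 had 567 (537 to 597) CPM in fixed against 437 (404 to 472) CPM in live cells, a ratio of 1.30 (1.18 to 1.42). Eif5b had 57.3 and 136 CPM, a ratio of 0.421 (0.337 to 0.525), and Eif5, the GTPase-activating protein of eIF2, 50.3 and 55.3 CPM, a ratio of 0.911 (0.683 to 1.22). Eif1ax had 31.3 CPM in fixed against 57.3 CPM in live cells, a ratio of 0.547 (0.396 to 0.755), and Eif2a, a protein that can carry initiator tRNA without eIF2, 11.5 and 22.9 CPM, a ratio of 0.504 (0.294 to 0.856). The 10 genes of start codon selection summed to 766 CPM in fixed against 771 CPM in live cells.

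The eIF3 subunit genes summed to 458 CPM in fixed against 708 CPM in live cells, a ratio of 0.647 (0.594 to 0.705), with 0 of 14 at least 1.5-fold higher and 6 at least 1.5-fold lower, against 10.8% and 40.0% of all genes. Relative to the median gene, 4 were higher and 4 lower, against 22.2% and 24.6% of all genes. Eif3a had 57.7 (48.6 to 68.1) CPM in fixed against 159.7 (140 to 181) CPM in live cells, a ratio of 0.362 (0.291 to 0.447), and Eif3e, which contacts the eIF4 complex, 20.6 and 45.2 CPM, a ratio of 0.457 (0.310 to 0.669). Eif3h had 42.1 and 70.8 CPM, a ratio of 0.595 (0.448 to 0.788), and Eif3c 37.9 and 62.0 CPM, a ratio of 0.612 (0.453 to 0.826), which without its top cell was -0.54 on the log2 scale. Eif3m had 37.1 CPM in fixed against 26.3 CPM in live cells, a ratio of 1.41 (0.960 to 2.11), and Eif3d, a subunit that can bind the cap itself, 19.4 and 14.2 CPM, a ratio of 1.37 (0.803 to 2.41). The near-identical Eif3j1 and Eif3j2, both counted among the 6 lower genes, summed to 56.5 CPM in fixed against 123 CPM in live cells. The ratio of the sums was 0.461 (0.366 to 0.578).

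The eIF2 subunits summed to 84.1 CPM in fixed against 123 CPM in live cells, a ratio of 0.682 (0.556 to 0.838). Eif2s1, whose product the kinases phosphorylate, had 8.66 and 19.5 CPM in fixed against live cells, a ratio of 0.443 (0.240 to 0.804), Eif2s2 52.0 and 80.2 CPM, a ratio of 0.648 (0.500 to 0.840), which without its top cell was -0.40 on the log2 scale, and Eif2s3x 23.1 and 22.9 CPM, a ratio of 1.01 (0.647 to 1.59). Genes of eIF2B, the exchange factor of eIF2, lay at both ends of the order. Eif2b3 had 6.60 CPM in fixed against 20.9 CPM in live cells, a ratio of 0.316 (0.161 to 0.595), and Eif2b4 16.5 and 43.1 CPM, a ratio of 0.382 (0.251 to 0.577). Eif2b5, the catalytic subunit, had 16.5 and 17.5 CPM, a ratio of 0.942 (0.561 to 1.61), and Eif2b2 10.3 and 6.07 CPM, a ratio of 1.70 (0.768 to 4.14) from 25 and 9 UMIs.

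At the cap, Eif4e had 19.8 (14.6 to 26.2) CPM in fixed against 59.3 (47.6 to 73.1) CPM in live cells, a ratio of 0.334 (0.230 to 0.480), whereas Eif4e2 had 14.0 and 9.43 CPM, a ratio of 1.49 (0.777 to 3.00). The scaffold genes Eif4g2 and Eif4g1 had 189.7 and 209.6 CPM and 72.6 and 95.7 CPM in fixed against live cells, ratios of 0.905 (0.782 to 1.05) and 0.759 (0.605 to 0.953), and Eif4g3 36.7 and 59.3 CPM, a ratio of 0.619 (0.456 to 0.841). Eif4a2, the more abundant helicase gene, had 89.9 CPM in fixed against 86.3 CPM in live cells, a ratio of 1.04 (0.834 to 1.31), and Eif4a3, the helicase of the exon junction complex, 9.90 and 16.2 CPM, a ratio of 0.612 (0.333 to 1.13). Eif4ebp1 had 54.0 and 40.4 CPM, a ratio of 1.34 (0.977 to 1.85), and Eif4ebp2 9.07 and 14.2 CPM, a ratio of 0.641 (0.336 to 1.23). Without the top cell of each gene the log2 ratio of Eif4a3 was -1.36 and that of Eif4ebp2 -1.38.

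**Figure D5:**
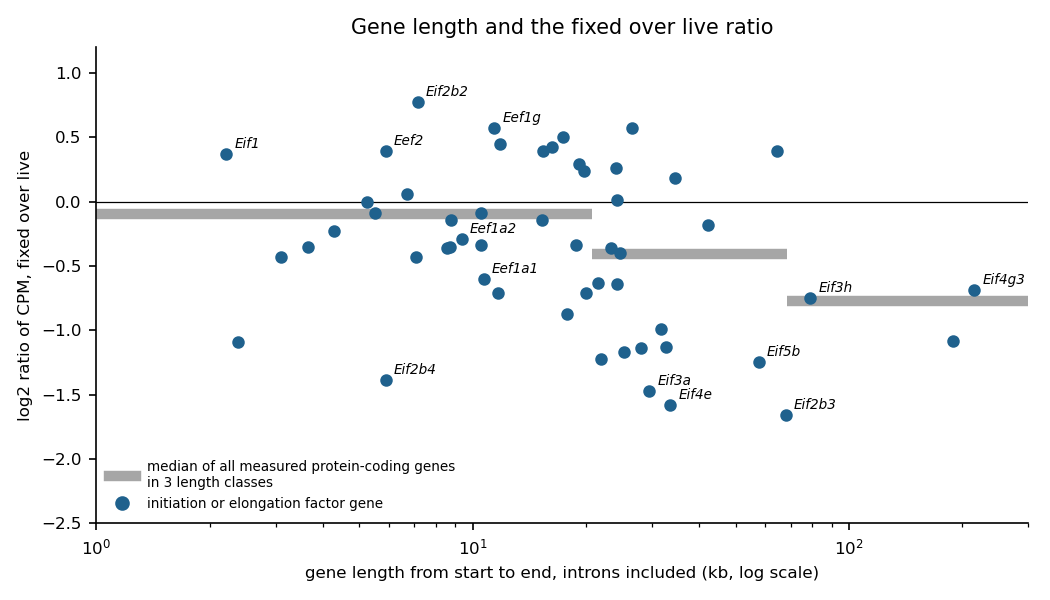
Log2 ratio of CPM, fixed over live, against the length of the gene from start to end with introns (kb, log axis) for the 53 factor genes; grey bars are medians of all measured protein-coding genes in 3 classes of length. The grey medians step down from -0.10 to -0.77 with length, and the factor genes scatter around them.

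Gene length moved with the fixed over live ratio. Over 6615 protein-coding genes the Spearman correlation of gene length, introns included, and ratio was -0.335, and over the 53 factor genes -0.328; genes of 1 pool share its depth, and no p is attached. The median log2 ratio was -0.14 for the 31 factor genes of up to 20.8 kb, -0.64 for the 19 of 20.8 to 68.5 kb and -0.75 for the 3 longer ones, Eefsec, Eif3h and Eif4g3. The same classes of all protein-coding genes had medians of -0.10, -0.41 and -0.77. Single genes lay away from the median of their class: Eif2b4 was short with a log2 ratio of -1.39, and Eef2k and Eif4e2 were of middle length with log2 ratios of 0.39 and 0.57. Eef2k rested on 30 UMIs in fixed and 14 in live cells, and Eif4e2 on 34 and 14. From read counts the log2 ratios of Eif2b4, Eef2k and Eif4e2 were -1.30, -0.30 and 1.48. The part of gene length in the ratios was not tested.

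Related genes outside the factor set were counted in the same way, to be read against 10.8% higher and 40.0% lower among all genes. The 87 measured genes of cytosolic ribosomal proteins had a median log2 ratio of -0.27 in fixed over live cells, with 3 at least 1.5-fold higher and 26 at least 1.5-fold lower. Of 25 listed regulators of the factors, 18 were measured, with 1 higher (Paip1, a cofactor of poly(A) binding protein, at 22.7 CPM in fixed against 14.8 CPM in live cells) and 7 lower. Of 10 mitochondrial translation factors 7 were measured, with 0 higher and 2 lower, among them Mtif2, the mitochondrial initiation factor, at 9.49 CPM in fixed against 48.5 CPM in live cells, a ratio of 0.195 (0.117 to 0.316). Of 4 measured termination and recycling genes, 0 were higher and 2 lower. Pabpc1, the main poly(A) binding protein gene, had 9.49 CPM in fixed against 29.0 CPM in live cells, a ratio of 0.327 (0.188 to 0.555).

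Atrial-labelled cells were compared with ventricular-labelled cells from the same 4 libraries. Of 61 measured factor genes, 6 were at least 1.5-fold higher and 8 at least 1.5-fold lower, against 17.0% and 23.2% of all 11682 genes measured. The median log2 ratio was 0.04 for the factor genes and -0.07 for all genes. Either way apart were 14 factor genes, against 40.2% of all genes, and the abundant factors lay close to a ratio of 1. Eif1 had 1196 CPM in atrial-labelled and 1057 CPM in ventricular-labelled cells, a ratio of 1.13 (1.07 to 1.20), and was higher within each of the 4 libraries. For this comparison, agreement within each library was not counted over all genes. Eef2 had 619.7 and 637 CPM, a ratio of 0.973 (0.902 to 1.05), Eif4g2 466 and 487 CPM, a ratio of 0.957 (0.877 to 1.04), and Eif3a 195 and 209.9 CPM, a ratio of 0.930 (0.812 to 1.06). None of the 14 eIF3 genes was 1.5-fold apart, and their sum was 1326 CPM in atrial-labelled and 1319.8 CPM in ventricular-labelled cells, a ratio of 1.00 (0.955 to 1.06).

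The genes 1.5-fold higher in atrial-labelled cells were Eef1a1, Eif2b3, Eef1e1, Eef2k, Eif1ax and Eif2b5. Eef1a1 had 252 CPM in atrial-labelled and 86.8 CPM in ventricular-labelled cells, a ratio of 2.91 (2.53 to 3.34) or 1.54 on the log2 scale, which without the 8 cells low in Myl2 was 0.41. Eif1ax had 102 and 60.7 CPM, a ratio of 1.68 (1.37 to 2.05). By label it had 123 CPM in LA but 59.6 CPM in RA, against 53.8 CPM in LV and 66.6 CPM in RV. Eef2k had 34.9 and 18.5 CPM, a ratio of 1.88 (1.31 to 2.67), and was higher within each library. Eif2b3 had 29.9 and 13.5 CPM, a ratio of 2.22 (1.48 to 3.28), which rested on 31 UMIs of LA cells in library A, and without that library its log2 ratio was -0.44. Eef1e1, a component of the aminoacyl-tRNA synthetase complex, had 19.9 and 9.54 CPM, a log2 ratio of 1.06 that was 0.34 without library B. Eif2b5 had 36.3 and 23.2 CPM, a log2 ratio of 0.65 that was 0.19 without library D and 0.42 without library C. The log2 ratio of Eif1ax was 0.57 without library B, that of Eef2k 0.53 without library A, and that of Eef1a1 2.46 without library A.

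Those 1.5-fold lower were Eif2b1, Eef1akmt1, Eif2b2, Eef2kmt, Eif1ad, Eif2ak4, Eif6 and Eif2a. Eif2b1, the regulatory α subunit of eIF2B, had 8.55 CPM in atrial-labelled and 25.4 CPM in ventricular-labelled cells, a ratio of 0.337 (0.170 to 0.607) from 12 and 141 UMIs. Eif2b2 had 11.4 and 26.6 CPM, a ratio of 0.428 (0.238 to 0.718), and Eef1akmt1 19.9 and 50.2 CPM, a ratio of 0.397 (0.259 to 0.587). All 3 were lower within each of the 4 libraries, but their library ranges overlapped. These 3 and Eef2kmt, the eEF2 lysine methyltransferase, were the 4 of 14 called genes that stayed 1.5-fold apart when any 1 library, the top cell of the gene or the cells low in Myl2 were left out. Neither this nor agreement within each library was counted over all genes, so the counts have no share to be read against. Eef2kmt had 5.70 and 12.1 CPM in atrial-labelled and ventricular-labelled cells, and its log2 ratio of -1.08 became -1.83 without the cells low in Myl2. Eif6, which holds back the large ribosomal subunit, had 18.5 and 28.6 CPM, a log2 ratio of -0.63 that was -0.08 without library B and -0.47 without its top cell. Eif2ak4 had 7.12 and 12.6 CPM, a log2 ratio of -0.82 that was -0.45 without library B. Eif1ad had 7.12 and 13.1 CPM, a log2 ratio of -0.88 that was -1.49 without library A and -0.55 without its top cell. Eif2a had 20.7 and 31.5 CPM, a log2 ratio of -0.61 that was -0.53, -1.61, -0.23 and -0.41 without libraries A, B, C and D in turn. Red cell markers were higher in both atrial-labelled pools, and their part in these values was not tested.

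Of the related lists, the 24 measured regulators held 4 genes at least 1.5-fold higher in atrial-labelled cells and 4 lower, against 17.0% and 23.2% of all genes. The 4 genes of termination and recycling with a value held none in either direction, and the 10 mitochondrial factors 2 in each. Pabpc1 had 193 CPM in atrial-labelled and 103 CPM in ventricular-labelled cells, a ratio of 1.87 (1.62 to 2.17), and Tpt1, whose mRNA opens with the same pyrimidine tract as the elongation factor mRNAs, 1314 and 1226 CPM, a ratio of 1.07 (1.02 to 1.13). The 92 genes of ribosomal proteins had a median log2 ratio of 0.04, with 1 higher and 4 lower.

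LV was compared with RV over the same 4 libraries. Of 60 measured factor genes, 9 were at least 1.5-fold higher and 2 at least 1.5-fold lower in LV, against 16.9% and 11.9% of all 10812 genes measured. The median log2 ratio was 0.12 for the factor genes and 0.04 for all genes. Within each of the 4 libraries LV was above RV for 4 factor genes, against 6.42% of all genes, and below RV for 3, against 5.11%. All 4 LV libraries lay above all 4 RV libraries for 1 gene, Eef1e1, against 1.24% of all genes, and the reverse held for 0 factor genes, against 0.749%.

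Eef1e1 had 23.6, 15.0, 10.8 and 12.5 CPM in LV of libraries A to D, and 0, 5.57, 6.46 and 4.12 CPM in RV of the same libraries. Every LV library was thus above every RV library, on 40 UMIs in LV and 13 in RV. In LV the top cell of each library held 8 of 16, 6 of 9, 6 of 7 and 5 of 8 UMIs in libraries A to D. Its ratio was 3.58 (1.88 to 7.30), or 1.84 on the log2 scale, and 1.22 without library A.

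Eef2 had 776, 652, 656 and 666 CPM in LV of libraries A to D, and 661, 540.1, 563 and 621 CPM in RV. LV was higher within each library while the ranges overlapped, with a ratio of 1.16 (1.09 to 1.24). Eif4g2 had 428, 477, 445 and 458 CPM in LV, and 480.3, 543, 476 and 577 CPM in RV, and was lower in LV within each library, at a ratio of 0.872 (0.807 to 0.941). Eif4e2 and Eef1akmt1 were also higher in LV within each library, at ratios of 1.53 (1.07 to 2.20) and 1.43 (1.13 to 1.83), and Eif4a1 and Eif2b2 lower, at 0.866 (0.688 to 1.09) and 0.772 (0.546 to 1.08). Without library B the log2 ratio of Eif4e2 was 0.53 and without the cells low in Myl2 0.52, against 0.62 with all cells.

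Eef1a1 had 309.8, 63.4, 20.1 and 39.0 CPM in LV of libraries A to D, and 71.6, 43.2, 116 and 17.9 CPM in RV. Only library A was far above the rest in LV. The ratio of 1.70 (1.41 to 2.05), 0.77 on the log2 scale, was -0.67 without library A, 1.74 without library C, -0.25 without the top cell and 0.05 without the cells low in Myl2. Eef1a2 had 87.0, 90.1, 137 and 88.9 CPM in LV, and 106, 110.0, 85.1 and 111 CPM in RV, a ratio of 0.992 (0.837 to 1.18).

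The other genes at least 1.5-fold apart between LV and RV were of low level. Eif2ak2 had 12.9 CPM in LV and 4.35 CPM in RV, a ratio of 2.96 (1.52 to 6.12) that was 2.43 on the log2 scale without library B and 2.21 without its top cell, against 1.56 with all cells. Eif2ak3 had 3.90 CPM in LV and 8.70 CPM in RV, a ratio of 0.448 (0.193 to 0.960). Of the 11 called genes, 3 stayed 1.5-fold apart in each left-out setting where they still had 30 UMIs: Eef1e1, Eif2ak2 and Eif2ak3. The settings left out any 1 library, the top cell or the cells low in Myl2. Eif2ak2 fell under 30 UMIs without library A and was not scored there. Eif2ak3, with 10 UMIs in LV and 26 in RV, was not scored without library B, C or D or without its top cell. How many of all genes stay apart in this way was not counted. Eif4enif1, which carries eIF4E into the nucleus, had 14.8, 5, 13.9 and 79.5 CPM in LV of libraries A to D, and 11.4, 18.1, 7.54 and 13.7 CPM in RV, with 33 of its 73 LV UMIs in 1 cell, and its log2 ratio of 1.20 was -0.06 without library D. Eif4ebp2 had 47.9 CPM in LV and 29.1 CPM in RV, a log2 ratio of 0.72 that was 0.50 without library C and 0.54 without its top cell.

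Eef2k had 23.4 CPM in LV and 14.4 CPM in RV, a log2 ratio of 0.70 that was 0.42 without library A, 0.30 without its top cell and 0.46 without the cells low in Myl2. Eif2d, a factor of noncanonical initiation and recycling, had 26.9 and 17.1 CPM, a log2 ratio of 0.66 that was 0.37 without library A, 0.38 without library C and 0.30 without its top cell. Eif1ad had 16.8 and 10.0 CPM, a log2 ratio of 0.74 that was -0.49 without library A and 0.13 without its top cell. Eif2a had 22.2 CPM in LV and 39.5 CPM in RV, a log2 ratio of -0.83 that was -0.49 without library D. None of the 13 measured eIF3 genes was 1.5-fold apart, with Eif3h at 164 CPM in LV and 122 CPM in RV, a ratio of 1.35 (1.17 to 1.56), and Eif3k at 89.2 and 123 CPM, a ratio of 0.725 (0.612 to 0.857). Of the related lists, 3 of 23 measured regulators were higher and 0 lower (16.9% and 11.9% of all genes), 0 of 4 termination and recycling genes were higher and 1 lower (Abce1, the recycling ATPase, at 29.2 CPM in LV and 46.8 CPM in RV), and 1 of 10 mitochondrial factors was higher and 2 lower. Of the 91 measured genes of ribosomal proteins, 1 was higher and 1 lower, and none of the 8 partners with a pyrimidine tract was apart.

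LA was compared with RA on the smallest pools. Of 47 measured factor genes, 12 were at least 1.5-fold higher and 8 at least 1.5-fold lower in LA, against 31.6% and 17.4% of all 5715 genes measured, or 20 and 49.0% either way. Relative to the median gene, 10 were higher and 8 lower, against 28.0% and 21.4% of all genes, and the median log2 ratio was -0.04 for the factor genes and 0.11 for all genes. Higher in LA were Eef1a1 at 343 CPM in LA and 72.3 CPM in RA, Eif2b3 at 39.6 and 10.6 CPM, Eif3m at 78.2 and 27.7 CPM, Eif3j1 at 64.3 and 29.8 CPM (67.5 and 34.0 CPM summed with its copy Eif3j2, a ratio of 1.98, 1.13 to 3.68), Eif2s1 at 36.4 and 17.0 CPM and Eif1ax at 123 and 59.6 CPM, and also Eif4g3, Eif4ebp2, Eef1g, Eif2b4, Eif2d and Eif3b. Lower in LA were Eefsec at 20.3 CPM in LA and 61.7 CPM in RA, Eif2s2 at 88.9 and 236 CPM, Eif3l at 26.8 and 61.7 CPM and Eif5 at 85.7 and 189 CPM, and also Eif3e, Eif3d, Eef1a2 and Eif4ebp1. Eef2 was at 619 and 621 CPM in LA and RA, a ratio of 0.997 (0.864 to 1.15).

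Many of these calls changed when a library or a cell was left out. In RA, 61 of 111 Eif2s2 UMIs lay in 1 cell of library C, and without library C the log2 ratios of Eif2s2, Eif3e and Eef1a2 were 0.06, 0.07 and 0.32, against -1.41, -0.74 and -0.59 with it. Without the same library Eef1a1 was at 0.54 against 2.24, Eif2d at -0.62 against 0.69, Eif4ebp2 at 0.02 against 0.75, Eif3m at 0.82 against 1.50 and Eif2s1 at 2.65 against 1.10. Without library D, Eef1a1 was at 3.32, without its top cell at 1.57 and without the cells low in Myl2 at 1.31. Without library B, Eif3b was at -0.16 against 0.61 and Eif2b3 at 2.79 against 1.90, while Eif2s1 was at 1.69 and Eif3d at -0.49. Without library A, Eif4g3 was at 0.40 against 0.86, Eif3e at -1.41, Eif3d at -0.37 and Eif4ebp1 at -0.35, and without library D, Eif3d was at -0.55 and Eif3b at 0.57. Without library C, Eef1g was at 0.55 against 0.71, Eif4ebp1 at -0.51 against -0.59 and Eif3d at -1.40 against -0.69. Without the top cell of each gene, Eif2s1 was at 2.84, Eif2s2 at -0.73, Eif2b4 at 0.36 against 0.70, Eif3b at 0.30, Eif3d at -0.57, Eif3e at -0.40, Eef1a2 at -0.17, Eif4ebp1 at -0.57 and Eif4ebp2 at 0.56. Without the cells low in Myl2, Eif3b was at 0.39, Eif3e at -0.48, Eef1a2 at -0.35, Eif4ebp1 at -0.41 and Eif4ebp2 at 0.56. Of the 20 called genes, 8 stayed 1.5-fold apart in each left-out setting where they still had 30 UMIs. They were Eefsec, Eif1ax, Eif2b3, Eif2s1, Eif3l, Eif3m, Eif5 and Eif3j1, the last without its copy Eif3j2. The settings left out any 1 library, the top cell or the cells low in Myl2. Eif2b3 and Eif2s1 fell under 30 UMIs without library A, and Eif3l without library C, and were not scored there. Library A held 31 of 37 LA UMIs of Eif2b3 and 25 of 34 of Eif2s1. Library C held 27 of 29 RA UMIs of Eif3l. How many of all genes stay apart in this way was not counted. Red cell markers made up 2.68% of LA and 4.99% of RA UMIs, mesothelial markers 0.167% and 0.0181%, and their part in these values was not tested.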

How the data were processed

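Both studies come with raw UMI counts and raw read counts by gene and barcode as the authors deposited them, and with cell tables giving labels, libraries and deposited percent values, which served no result. The submitters' processing notes name STAR 2.5.4b, featureCounts and the build GRCm38. Annotation release, strand setting and UMI tool: not given in the sources used here. Symbols and gene types came from GENCODE M21 through the Ensembl identifiers, and promoter windows from RefSeq. Of 69 annotated Eif and Eef genes, 4 have no row (Eef1akmt2, Eif4e1b, Eif4e3 and Eif4ebp3) and are not analysed here, and Eif2s3y and Eif5a2 have a row only in the live/fixed table.

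Barcode columns without a label (45) were left out. The libraries A to D of the multichamber study use the same set of 84 cell barcodes, and no full barcode with its library is shared; fixed and live cells came from 1 library. UMIs were summed per label and divided by nuclear-encoded gene UMIs. Genes with at least 30 UMIs over both pools were compared, and a gene was called apart at 1.5-fold. Ratios carry exact 95% Clopper-Pearson intervals. They were also run on simulated pools with independent Poisson counts, which is what the intervals assume. Those pools do not hold the clumping of UMIs in single cells, so they cannot show how well the intervals cover real counts. The intervals and the floor of 3 counts cover counting error only. No doublet caller was run, as cells were sorted singly. Alternatives were other totals, TMM factors (edgeR 4.0.16), median-of-ratios factors, equal weights per cell, read counts, other minimums, a pseudocount of 5 CPM, and leaving out cells or libraries.

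The genes, lists and rules were chosen with earlier results of these data known. Named were the 12 most abundant factor genes of LV, the Eef1a pair, Eef2, close paralogues and, per comparison, the 5 highest and 5 lowest ratios, the most abundant member of each role and every member 1.5-fold apart; others named were chosen after their values were seen. Calculations used Python 3.11.15 with numpy 2.4.6, pandas 2.3.3 and scipy 1.17.1, and R 4.3.3.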

Additional observations from a re-analysis of the deposited data

Results flagged for a closer look

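For the genes named in the comparison of LV with RV, the 4 libraries of each label were examined for a library far from the other 3. Of 66 such groups of 4, 7 had one. The rule is set to flag about 1 in 20 groups of normally spread values. That rate does not apply here, because many of these genes were named for their ratios in the same libraries. Eef1a1 had 309.8 CPM in LV of library A, against 20.1 to 63.4 CPM in the other LV libraries, with 149 of the 210 UMIs in 1 cell. Eif1ad had 44.3 CPM in the same library, against 4.68 to 10.0 CPM, with 15 of 30 UMIs in 1 cell. Eif4a1 had 64.9 CPM there, against 47.9 to 50.0 CPM, with 16 of 44 UMIs in 1 cell. Eef2 had 776 CPM there, against 652 to 666 CPM, with 92 of 526 UMIs in 1 cell. Eef1a2 had 137 CPM in LV of library C, against 87.0 to 90.1 CPM, with 21 of 89 UMIs in 1 cell. Eif4enif1 had 79.5 CPM in LV of library D, against 5 to 14.8 CPM, with 33 of its 51 UMIs in 1 cell. Eif4ebp1 had 179 CPM in RV of library D, against 139 to 145 CPM in the other RV libraries, with 14 of 130 UMIs in 1 cell. Thus 4 of the 7 were LV of library A, and no cause was tested.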

How the results depend on the processing

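Of 2358 recomputed ratios of named genes, 2125 stayed within the counting interval, 213 moved beyond it, and 20 that were 1.5-fold apart as reported turned direction. Of those under 1.5-fold as reported, 156 changed sign. The count of genes 1.5-fold apart is given here with the genes measured, which differed between settings. Fixed against live cells had 35 of 62 from read counts and 13 of 33 at a minimum of 100 UMIs (21 of 53 as reported). Atrial-labelled against ventricular-labelled cells had 31 of 63 from read counts, 24 of 61 with equal weight per cell and 9 of 61 with the pseudocount (14 of 61 as reported). LV against RV had 29 of 62 from read counts, 7 of 53 at 100 UMIs, 7 of 60 with the pseudocount and 6 of 59 without top cells (11 of 60 as reported). LA against RA had 37 of 56 from read counts and 8 of 25 at 100 UMIs (20 of 47 as reported). The share of all genes apart was not counted in these other settings. The median log2 ratio of fixed over live cells was 0.21 with median-of-ratios factors, where the median of all genes was 0.18; the split was then 15 higher and 7 lower, and 14 and 10 with TMM, and 16 of the 53 ratios changed sign under each.

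The difference in the Eef1a2 share, in percentage points, was -5.02 without top cells in fixed minus live cells (4.23 as reported). In atrial-labelled minus ventricular-labelled cells (-24.7) it was -38.5 with equal weights, -38.0 without top cells, -3.96 without the cells low in Myl2, an alternative chosen after seeing the data, and -39.1 to -16.8 leaving out a library. In LV minus RV (-13.3) it was -4.76, 2.67, -0.551 and -33.5 to 11.3 in the same order, and in LA minus RA (-44.4) -5.96, -18.3, -24.3 and -60.2 to -3.15, with -57.1 from read counts, -74.2 in cells of at least 20000 gene UMIs and -74.6 without cells over 2% non-myocyte RNA. The cause was not tested.

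Log2 ratios 1.5-fold apart as reported that turned were Eif4g3, 0.33 from read counts, in fixed over live cells; Eif2ak4, 0.54 with equal weights, and Eif2b3, -0.44 without library A (up to 1.57), in atrial-labelled over ventricular-labelled cells; in LV over RV, Eif2d, -0.06 with equal weights, Eef1a1, -0.25 without its top cell and -0.67 to 1.74 leaving out a library, Eif1ad, -0.49 to 1.17, and Eif4enif1, -0.06 to 1.75. In LA over RA these were Eif2d (-0.62), Eif3b (-0.52), Eif3l (0.22), Eif4ebp2 (-0.25) and Eif4g3 (-0.13) with equal weights, Eif3d (0.43) and Eif4ebp1 (0.10) from read counts, and, leaving out a library, Eif3b (-0.16 to 0.84), Eef1a2 (-0.77 to 0.32), Eif2d (-0.62 to 0.99), Eif2s2 (-1.85 to 0.06) and Eif3e (-1.41 to 0.07). No paired analysis was possible because each label is 1 pool without numbered replicates, and how libraries relate to animals is not given. Directions within each of the 4 libraries, which hold all 4 chamber labels, are given as counts with no test. RA had the fewest UMIs, and 3 counts there are 6.38 CPM.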

Other observations

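Rows of processed pseudogenes of the factors also held UMIs. Eif1-ps1 had 240 UMIs (34.5 CPM) over the kept multichamber cells and 219 UMIs (56.0 CPM) over the live and fixed cells, Eif1-ps2 had 50 UMIs (7.19 CPM) and 122 UMIs (31.2 CPM), and Eif1-ps3 had 1 UMI and 26 UMIs, in that order of studies. Those of eIF3 and eIF4A, Eif3s6-ps1 and Eif4a-ps4, had 20 and 9 UMIs in the multichamber cells and 9 and 5 UMIs in the live and fixed cells. Such rows are not part of the levels above.

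Values per cell rest on few UMIs, and the spread between cells was not separated from counting error. Eif4e had no UMI in 32 of 89 LV cells and 24 of 87 RV cells with at least 5000 gene UMIs. It had a median of 44.7 CPM in LV and 43.4 CPM in RV, with highest values of 404 and 669.7 CPM. Eif5b had a median of 161 CPM in LV and 163 CPM in RV, with highest values of 1175 and 1405 CPM. In the live/fixed study Eif3a had a median of 42.7 CPM over 34 fixed cells and 142 CPM over 31 live cells, and upper quartiles of 101 and 205 CPM. Eif5b had medians of 27.3 and 101 CPM in fixed and live cells, and Eef2 medians of 219 and 149 CPM.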
